A study of Homo sapiens with 6 samples.

Results

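The 10 genes described here are known transcriptional targets of p53 that act in DNA repair, nucleotide supply and metabolism, namely SESN1, SESN3, DDB2, XPC, RRM2B, FDXR, ZMAT3, TIGAR, POLH and ACER2. They were taken by symbol from the deposited expression table, where all 10 were found among 58735 genes. RKO is an established human colorectal carcinoma line that is known to carry wild-type p53. The comparison was between 3 libraries of control RKO cells (Vector) and 3 libraries of RKO cells that stably overexpressed the long non-coding RNA LOC101927668 (LOC_OE), and the question was which genes differ when this RNA is raised. The full-length transcript had been delivered with a plenti6 lentivirus, and infected cells had been kept by puromycin selection. All cells were grown in DMEM with fetal bovine serum, and the labels name no DNA-damaging agent for any library. The submitters call the 3 libraries of a group biological replicates, but whether they came from separately infected lines is not given in the sources used here, so p-values measure the spread between these libraries.

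p53 is a transcription factor that is kept low by degradation and accumulates when DNA is damaged or growth is disturbed. Its targets do more than arrest or kill a cell. Some recognise damaged bases, some copy past them or make the nucleotides that repair needs, and others lower the activity of the growth kinase mTORC1 or shift the use of sugars, lipids and reducing power. Many of these genes are also transcribed at a basal p53-dependent level in unstressed cells that have wild-type p53.

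p53 binds DNA through pairs of a 10-base consensus, the p53 decamer, which reads the same on both strands. The decamer was searched without mismatch in the RefSeq promoter windows, which run from 250 bases before to 50 bases after each annotated start (GRCh38.p14). Windows were found for 9 members, 14 windows in all. The sequences below are shown because they carry the closest matches among the members, each read 5′ to 3′ on the gene's own strand. Capitals mark exact decamers, and for XPC the whole pair of decamers, including its mismatched bases.
DDB2, chr11:47214975-47215003, plus strand: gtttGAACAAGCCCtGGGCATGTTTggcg
FDXR, chr17:74872986-74873015, minus strand: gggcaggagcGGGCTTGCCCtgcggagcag
SESN1, chr6:109009018-109009047, minus strand: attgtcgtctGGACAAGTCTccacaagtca
XPC, chr3:14178565-14178594, minus strand: aagtgGAATTTGCCCAGACAAGCAAcatgg
The DDB2 stretch holds 2 exact decamers with 1 base between them, the first beginning 6 bases past the start, in an exon of the annotated 5′ untranslated region. FDXR had 1 exact decamer beginning 11 bases before the start used by RefSeq, which GENCODE also places in an untranslated exon. SESN1 had 1 exact decamer 49 bases before an internal start, in an intron of the gene as annotated by GENCODE. An exact decamer occurred in 6.63% of 35116 promoter windows. The XPC stretch has no exact decamer and is shown as a pair of decamers end to end, 20 bases with 3 mismatches. The 30 bases printed, flanks included, overlap both untranslated and coding exon sequence. At up to 3 mismatches such a pair was found in windows of SESN1, DDB2, XPC and FDXR, against 5.2% of all windows, and the DDB2 window also held one with 1 mismatch. No pair at this limit was found in the windows of SESN3, ZMAT3, TIGAR, POLH or ACER2, which says nothing of sites elsewhere in these genes. These matches are a description of the letters and no binding was measured.

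Expression was given as FPKM, the fragments on a gene scaled to exon length and library size. The length was that of all annotated exons of a gene merged. An order of genes by FPKM therefore depends on the annotation as well as on transcript level. For 100% of the values a whole number of reads could be recovered (within 0.02 reads), and the libraries held between 15008842 and 18410231 reads on genes. LOC101927668 had at most 1 read in a Vector library and 231 to 276 reads in the LOC_OE libraries. CDKN1A, the p53 target that encodes the cell cycle inhibitor p21, had an FPKM of 111 ± 5.37 in control and 61.1 ± 6.78 in LOC_OE cells (SD, n = 3). Of the epithelial markers examined, KRT8, KRT18, EPCAM and CDX2 averaged 1 FPKM or more, whereas CDH1 was at 0 and KRT19, CDX1, VIL1 and LGALS4 were under 0.1 in every library. The summed FPKM of the 10 epithelial markers was 39.4 to 41.5 in Vector and 48.4 to 89.6 in LOC_OE. Most of this difference was KRT18, at 18.8 ± 0.924 in control and 39.3 ± 24.5 in LOC_OE cells (SD, n = 3), while KRT8 was at 11.80 and 12.01 and KRT20 at 0.203 and 0. The part of these markers in the results was not tested. None of 16 fibroblast, immune and endothelial markers reached a mean FPKM of 1. LOC_OE replicate 1 stood apart, with Pearson correlations across genes of 0.962 to 0.967 to its group against 0.982 between LOC_OE replicates 2 and 3 and 0.982 to 0.983 among Vector libraries. A lower level here can be fewer transcripts in every cell or fewer cells that express the gene, and these cannot be told apart in bulk RNA.

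Of the 10 genes, 9 fell in LOC_OE, all but TIGAR. Each had an adjusted p-value under 0.05 from limma, fitted to log2(FPKM + 1) over 16061 tested genes and adjusted by the Benjamini-Hochberg method. The share of all tested genes that passed in this direction was 9.74%, and 10.7% passed as higher. The ratio of the mean FPKM in LOC_OE to that in Vector ran from 0.275 for SESN3 to 0.597 for POLH among the 9, and it was 0.740 for TIGAR. With a fold change of at least 1.5 added, 8 members passed against 5.58% of tested genes, since SESN3 fell short of this on the log2(FPKM + 1) scale. In all 10, every LOC_OE library lay below every Vector library, which was so for 20.9% of tested genes. The median log2 fold change was −0.78 over the members and 0.019 over all tested genes. All 10 passed the filter on low values (3 or more libraries at 0.5 FPKM or above), but SESN3 did so through its Vector libraries alone and therefore had to differ.
The number of members that passed was 9 without LOC_OE replicate 1, 8 without LOC_OE replicate 2 or 3, 6 without Vector replicate 1 or 3, and 5 without Vector replicate 2. Over all 16061 tested genes, 378, 227 and 278 fell without Vector replicates 1, 2 and 3, against 1565 with all libraries. The share of 9.74% given above is that of the fit with all libraries.

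**Figure D1:**
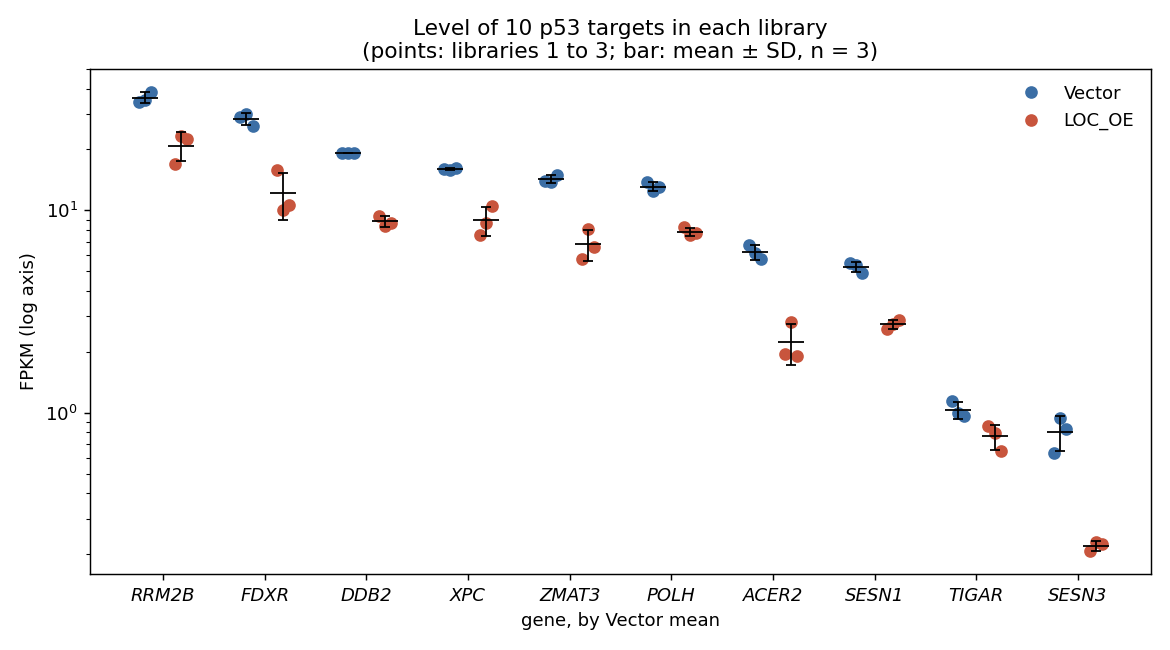
FPKM (log axis) of the 10 genes in the 3 Vector (blue) and 3 LOC_OE (red) libraries, ordered by the Vector mean, with bars for the mean ± SD (n = 3). In each gene all LOC_OE points lie under all Vector points, and the gap is narrowest for TIGAR, whose lowest Vector library is only 0.108 FPKM above its highest LOC_OE library.

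In Vector cells the levels spanned from RRM2B, at 36.1 FPKM on average, down to SESN3 with 0.802. The order by FPKM was RRM2B, FDXR, DDB2, XPC, ZMAT3, POLH, ACER2, SESN1, TIGAR and SESN3, and the libraries of neighbours in this order did not overlap. In LOC_OE, RRM2B was still highest at 20.9 and SESN3 lowest at 0.221. There the libraries of FDXR and XPC, XPC and DDB2, POLH and ZMAT3, and SESN1 and ACER2 overlapped, so these neighbours could not be ordered beyond their spread.

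Global genome repair begins with 2 damage sensors that are p53 targets. DDB2 encodes the subunit of the UV-damaged DNA binding complex that finds the lesion (ENSG00000134574, chromosome 11 from 47214465 to 47239240 on GRCh38). It had an FPKM of 19.2, 19.1 and 19.2 in Vector and 9.43, 8.33 and 8.70 in LOC_OE. The groups were far apart, with the 3 Vector libraries nearly identical. The mean fell by 54.0%, and the log2 fold change was −1.04 (SE 0.077, limma adjusted p = 0.00290). This rested on 1740 to 1765 reads per Vector library and 626 to 739 reads per LOC_OE library.
XPC encodes the protein that binds the distorted helix and starts the repair reaction (ENSG00000154767, chromosome 3 from 14145147 to 14178783). Its FPKM was 16.0, 15.8 and 16.3 in Vector and 7.58, 8.69 and 10.5 in LOC_OE. The LOC_OE libraries were spread more widely than the Vector libraries, with a coefficient of variation of 16.7% against 1.63%, and replicate 1 was lowest. On the log2 scale the change was −0.79 (SE 0.12, limma adjusted p = 0.0104). XPC passed the threshold only in the 3 fits that left out a LOC_OE library and missed it when a Vector library was left out, with adjusted p-values up to 0.0605. Its exons share 1140 bases with AC093495.1, 413 with AC090004.1 and 318 with LSM3, all on the opposite strand. As nothing states whether counting used strand, reads in these bases cannot be assigned with certainty.

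The partners of these sensors had different values. DDB1, which joins DDB2 to the CUL4A ubiquitin ligase, had an FPKM of 24.4 ± 0.715 in control and 29.1 ± 3.92 in LOC_OE cells (SD, n = 3), with 0.166 as the adjusted p-value in limma. The CUL4A scaffold rose, with a log2 fold change of 0.62 (limma adjusted p = 0.00889). RAD23B and CETN2, which bind XPC, had log2 fold changes of 0.17 and −0.080 and did not pass the threshold (limma adjusted p = 0.284 and 0.749). Of 29 other nucleotide excision repair genes tested, 5 fell, 3 rose and 21 did not pass, and their median log2 fold change was 0.17. These are 17.2% lower and 10.3% higher, against 9.74% and 10.7% of all tested genes. XAB2, which works in the transcription-coupled branch, had a log2 fold change of −0.56 (limma adjusted p = 0.0336), and ERCC4, ERCC6, UVSSA and XRCC1 were the other genes that fell. The rises were those of CUL4A and of GTF2H1 and GTF2H3, both subunits of the helicase complex TFIIH, with log2 fold changes of 0.50 and 0.45. GTF2H1 missed the threshold without any one of the Vector libraries, and CUL4A was lost without Vector replicate 2 or 3. Leaving out 1 library at a time, GTF2H3 and XAB2 passed only without LOC_OE replicate 1. With all libraries GTF2H3 was lost under quantile normalization and with the replicate block (limma adjusted p = 0.206 and 0.0636). XAB2 was lost without a filter (limma adjusted p = 0.0644).
Among the whole list with DDB2 and XPC, 7 genes fell. That number was 8 without LOC_OE replicate 1, 2 without LOC_OE replicate 2, 3 without LOC_OE replicate 3 and 1 without any one of the Vector libraries. Over all tested genes, 1565 fell with all libraries and 880 to 2586 without a LOC_OE library. Without Vector replicates 1, 2 and 3, 378, 227 and 278 of all tested genes fell. The number of the list that rose was 12 without LOC_OE replicate 1 and 0 to 2 without any other library.

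POLH encodes DNA polymerase eta, which copies accurately past UV-induced thymine dimers (ENSG00000170734, chromosome 6 from 43576150 to 43615660). It had an FPKM of 13.8, 12.5 and 13.1 in Vector and 8.24, 7.54 and 7.73 in LOC_OE. The libraries of each group lay close together and well away from the other group. The log2 fold change was −0.68 (SE 0.078, limma adjusted p = 0.00641), and all 6 fits that left out a library kept it past the threshold. The relatives POLI and POLK and the scaffold polymerase REV1 did not pass, with log2 fold changes of −0.097, −0.22 and 0.16 and adjusted p-values of 0.726, 0.342 and 0.178 from limma.
Of 14 other translesion synthesis genes tested, none fell and PRIMPOL, a primase that restarts stalled forks, rose by 0.55 on the log2 scale (limma adjusted p = 0.00795). As 1 gene of 14 it was 7.14% of the list against 10.7% of all tested genes, and the list had a median log2 fold change of 0.16. PRIMPOL missed the threshold without Vector replicate 2 or 3 and with the same sum of FPKM. PCNA, the sliding clamp that receives these polymerases, had a mean FPKM of 136 ± 8.60 in control and 184 ± 76.6 in LOC_OE cells (SD, n = 3), a spread that left no difference past the threshold (limma adjusted p = 0.379).

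RRM2B encodes p53R2, the small subunit of ribonucleotide reductase that serves repair and mitochondrial DNA outside S phase (ENSG00000048392, chromosome 8 from 102204502 to 102239118). It was the most abundant member, with an FPKM of 34.3, 35.2 and 38.7 in Vector and 17.0, 23.2 and 22.5 in LOC_OE. LOC_OE replicate 1 was the lowest library. Its log2 change was −0.77 (SE 0.13, limma adjusted p = 0.0144). It missed the threshold in each fit without a Vector library, with adjusted p-values up to 0.0693.
RRM1, the large subunit that pairs with it, rose from 43.2 ± 2.81 to 74.9 ± 15.3 FPKM (SD, n = 3), with a log2 fold change of 0.76 (limma adjusted p = 0.0196). RRM2, the small subunit of dividing cells, had an FPKM of 29.4, 27.3 and 30.3 in Vector and 73.8, 33.7 and 36.0 in LOC_OE (log2 fold change 0.61, limma adjusted p = 0.179). Without LOC_OE replicate 1 its log2 fold change was 0.26 and it passed (limma adjusted p = 0.0246). Within a library, the ratio of RRM2B to RRM1 was 0.741 to 0.946 in Vector and 0.183 to 0.347 in LOC_OE. The ratio of RRM2B to RRM2 was 1.17 to 1.29 in Vector and 0.230 to 0.689 in LOC_OE. Thus the p53-dependent small subunit had a higher FPKM than RRM2 in each control library and a lower one in each LOC_OE library.
Of the 12 other genes of ribonucleotide reductase and dNTP supply, 2 rose, RRM1 and the deaminase DCTD, and none fell. The share that rose was 16.7% against 10.7% of all tested genes, their median log2 fold change was 0.50, and in 9 of the 12 every LOC_OE library lay above every Vector library, which was so for 24.4% of tested genes. Both rises missed the threshold without any one of the Vector libraries.

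SESN1 and SESN3 encode sestrins, which bind the GATOR2 complex and hold mTORC1 low when amino acids are scarce. SESN1 (ENSG00000080546, chromosome 6 from 108986437 to 109094819) had an FPKM of 5.47, 5.39 and 4.89 in Vector and 2.60, 2.74 and 2.86 in LOC_OE. The LOC_OE libraries agreed closely, and the ratio of the means was 0.520. Its log2 fold change was −0.74 (SE 0.082, limma adjusted p = 0.00577).
SESN3 (ENSG00000149212, chromosome 11 from 95165513 to 95232541) had the lowest mean FPKM of the members. The Vector libraries held 125, 185 and 164 of its reads and the LOC_OE libraries 35, 39 and 35, which gave an FPKM of 0.630, 0.942 and 0.834 against 0.207, 0.230 and 0.225. The ratio of means, 0.275, was the lowest of the 10. On the log2(FPKM + 1) scale, which understates low genes, the change was −0.56 (limma adjusted p = 0.0272). On the recovered reads, limma voom gave −1.83 (SE 0.24, adjusted p = 0.00219). On the former scale leaving out 1 library at a time kept SESN3 past the threshold in 1 of 6 fits, the one without LOC_OE replicate 1, and leaving out Vector replicate 2 gave the highest adjusted p-value, 0.113.

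The third sestrin gene had another pattern. SESN2, which is induced by amino acid and endoplasmic reticulum stress as well as by p53, had an FPKM of 63.8, 63.3 and 59.7 in Vector and 29.2, 84.2 and 83.1 in LOC_OE. Replicate 1 of LOC_OE lay below every Vector library and the other 2 above. With all libraries the adjusted p-value was 0.911 in limma, and without LOC_OE replicate 1 SESN2 was higher in LOC_OE by 0.42 on the log2 scale (limma adjusted p = 0.00268). Per kilobase, SESN2 was the main sestrin transcript in every library. The ratio of SESN1 to SESN2 was 0.0819 to 0.0858 in Vector and 0.0889, 0.0325 and 0.0344 in LOC_OE replicates 1, 2 and 3, so it fell outside the Vector range downwards in replicates 2 and 3 and slightly upwards in replicate 1.
Of 20 other genes of nutrient sensing upstream of mTORC1, none fell and 3 rose, or 15% against 10.7% of all tested genes, and their median log2 fold change was 0.12. These were SEH1L and MIOS of GATOR2, with log2 fold changes of 0.68 and 0.46, and ITFG2 of the KICSTOR complex with 0.60. No gene of this list passed as higher without any one of the Vector libraries. ITFG2 was also lost without LOC_OE replicate 2 and without a filter (limma adjusted p = 0.0637 and 0.0711).

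FDXR encodes ferredoxin reductase, which passes electrons from NADPH to ferredoxins in mitochondria for iron-sulphur cluster and steroid synthesis (ENSG00000161513, chromosome 17 from 74862497 to 74873031). It had an FPKM of 28.9, 29.9 and 26.1 in Vector and 15.9, 10.1 and 10.6 in LOC_OE. Unlike in XPC, RRM2B and ZMAT3, LOC_OE replicate 1 was here the highest of its group. This was a log2 change of −1.18 (SE 0.17, limma adjusted p = 0.00956). It missed the threshold only without Vector replicate 2 (limma adjusted p = 0.0585).
FDX1, a ferredoxin that FDXR reduces, had an FPKM of 12.6 ± 0.242 in control and 13.6 ± 2.37 in LOC_OE cells (SD, n = 3), with 0.643 as the adjusted p-value in limma, and FDX2 was below the filter. The ratio of FDXR to FDX1 was 2.03 to 2.41 in Vector and 0.781 to 0.977 in LOC_OE. Of 14 other genes of mitochondrial iron-sulphur assembly, none fell and HSPA9, the mitochondrial chaperone of this pathway, rose by 0.87 on the log2 scale (limma adjusted p = 0.00459). This 1 gene was 7.14% of the list against 10.7% of all tested genes. The list had a median log2 fold change of 0.11.

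TIGAR encodes a fructose bisphosphatase that slows glycolysis and favours the pentose phosphate pathway (ENSG00000078237, chromosome 12 from 4307763 to 4354593). It was the member that did not pass. Its FPKM was 1.14, 0.992 and 0.963 in Vector and 0.855, 0.792 and 0.644 in LOC_OE. The groups did not overlap, but only 38 to 86 reads per library lay behind these values. The log2 fold change was −0.21 with a 95% confidence interval from −0.47 to 0.058 (limma adjusted p = 0.227). It did not pass in any of the 9 alternatives that kept all libraries and retained the gene. The spread of 9.24% (coefficient of variation) among Vector libraries was no larger than the 11.4% that counting error alone would give at this depth. TIGAR shares 1711 of its 4017 exon bases with AC008012.1, annotated on the same strand, which was itself near 0. How reads on the shared bases were counted is not given in the sources used here.
PFKFB3, which makes the sugar bisphosphate that TIGAR breaks down, had a log2 fold change of 0.073 (limma adjusted p = 0.693). Of 13 other genes of fructose bisphosphate and pentose phosphate metabolism tested, none fell, and PFKM and RPE rose by 0.64 and 0.31 on the log2 scale. This was 15.4% against 10.7% of all tested genes, with a median log2 fold change of 0.11. PFKM was lost without Vector replicate 2 and under quantile normalization (limma adjusted p = 0.0698). RPE was lost when any library but LOC_OE replicate 1 was left out, and with limma voom (0.0514), quantile normalization (0.238) and the replicate block (0.0707).

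ACER2 encodes the Golgi alkaline ceramidase that turns ceramide into sphingosine (ENSG00000177076, chromosome 9 from 19409059 to 19452020). It had an FPKM of 6.76, 6.18 and 5.74 in Vector and 1.95, 2.81 and 1.92 in LOC_OE. With a mean 64.2% lower than in Vector, it had the largest percentage decrease of the 10 after SESN3. The log2 fold change was −1.17 (SE 0.13, limma adjusted p = 0.00592) on the log2(FPKM + 1) scale and −1.49 with limma voom on the reads.
The relative ACER3 had an FPKM of 4.36 ± 0.485 in control and 5.96 ± 0.617 in LOC_OE cells (SD, n = 3), with a limma adjusted p = 0.0514. ACER3 passed as higher in 5 alternatives, with array weights (0.00717), limma voom (0.0374), a mean FPKM of 1 or more (0.0430), quantile normalization (0.0471) and without LOC_OE replicate 1 (0.0444). By FPKM, ACER2 was above ACER3 in every Vector library, at a ratio of 1.17 to 1.67. It was below ACER3 in every LOC_OE library, at 0.293 to 0.494. In reads ACER3 was the higher in every library, with 641 to 772 against 239 to 284 in Vector, over 8442 and 2238 exon bases. ASAH1, the lysosomal ceramidase, had a log2 fold change of −0.056 (limma adjusted p = 0.795). Of 13 other genes of ceramide and sphingosine metabolism tested, none fell, and SPTLC1 and CERS2 rose by 0.41 and 0.39 on the log2 scale. The share that rose was 15.4% against 10.7% of all tested genes, with a median log2 fold change of 0.20 over the list. Neither passed without LOC_OE replicate 2 or without any one of the Vector libraries, and CERS2 was also lost without LOC_OE replicate 3. With all libraries CERS2 was lost under quantile normalization and SPTLC1 with the replicate block (limma adjusted p = 0.116 and 0.0593).

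ZMAT3 encodes a zinc finger protein that binds RNA and affects splicing and mRNA stability (ENSG00000172667, chromosome 3 from 179017223 to 179072279). It had an FPKM of 13.9, 13.9 and 15.0 in Vector and 5.74, 8.07 and 6.60 in LOC_OE. Replicate 2 was the highest of the LOC_OE libraries and still far below the lowest control. It changed by −0.98 on the log2 scale (SE 0.12, limma adjusted p = 0.00727), and it passed in all 6 fits that left out a library. The relatives ZMAT1, ZMAT2 and ZMAT5 had log2 fold changes of −0.59, 0.24 and −0.26 and did not pass the threshold (limma adjusted p = 0.0593, 0.272 and 0.0974). ZMAT1 averaged 1.09 FPKM in Vector and 0.401 in LOC_OE, a ratio of 0.367 against 0.477 for ZMAT3. In ZMAT1 and ZMAT5 every LOC_OE library lay below every Vector library, which was so for 20.9% of tested genes. In alternatives with all libraries, 1 to 3 genes of this family passed as lower, ZMAT3 included.

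**Figure D2:**
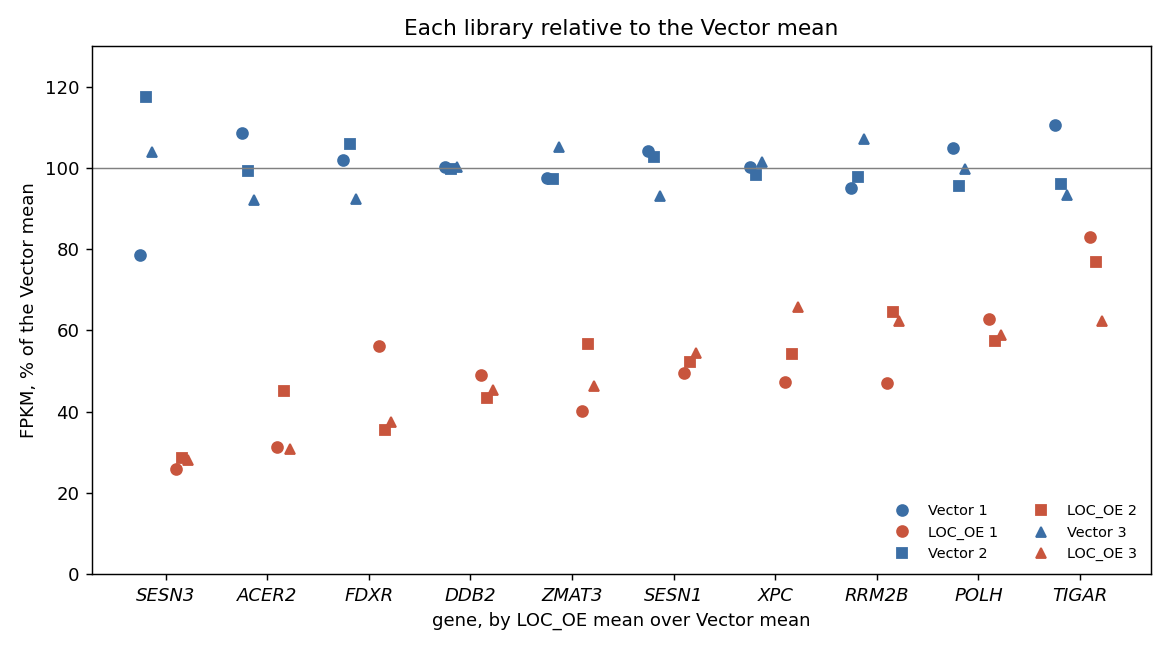
FPKM of each library as a percentage of the gene's own Vector mean, genes ordered by the ratio of LOC_OE to Vector, with marker shapes for replicates 1 to 3. The LOC_OE points form a band whose median is 48.2% in replicate 1, 53.2% in replicate 2 and 50.3% in replicate 3, and no replicate is lowest throughout.

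The LOC_OE libraries differed gene by gene, as the plot of percentages of the Vector mean shows. FDXR was at 56.1%, 35.6% and 37.5% of its Vector mean in replicates 1, 2 and 3, whereas RRM2B was at 47.0%, 64.4% and 62.3%. LOC_OE replicate 1 was the lowest of its group for 5 members, replicate 2 for 3 and replicate 3 for 2. The summed FPKM of the 10 genes was 140.1, 140.0 and 140.8 in Vector and 69.4, 72.5 and 72.3 in LOC_OE. LOC_OE replicate 1, which stood apart over the whole transcriptome, had a sum close to those of the other LOC_OE libraries, with RRM2B at its lowest and FDXR at its highest of the group there.

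**Figure D3:**
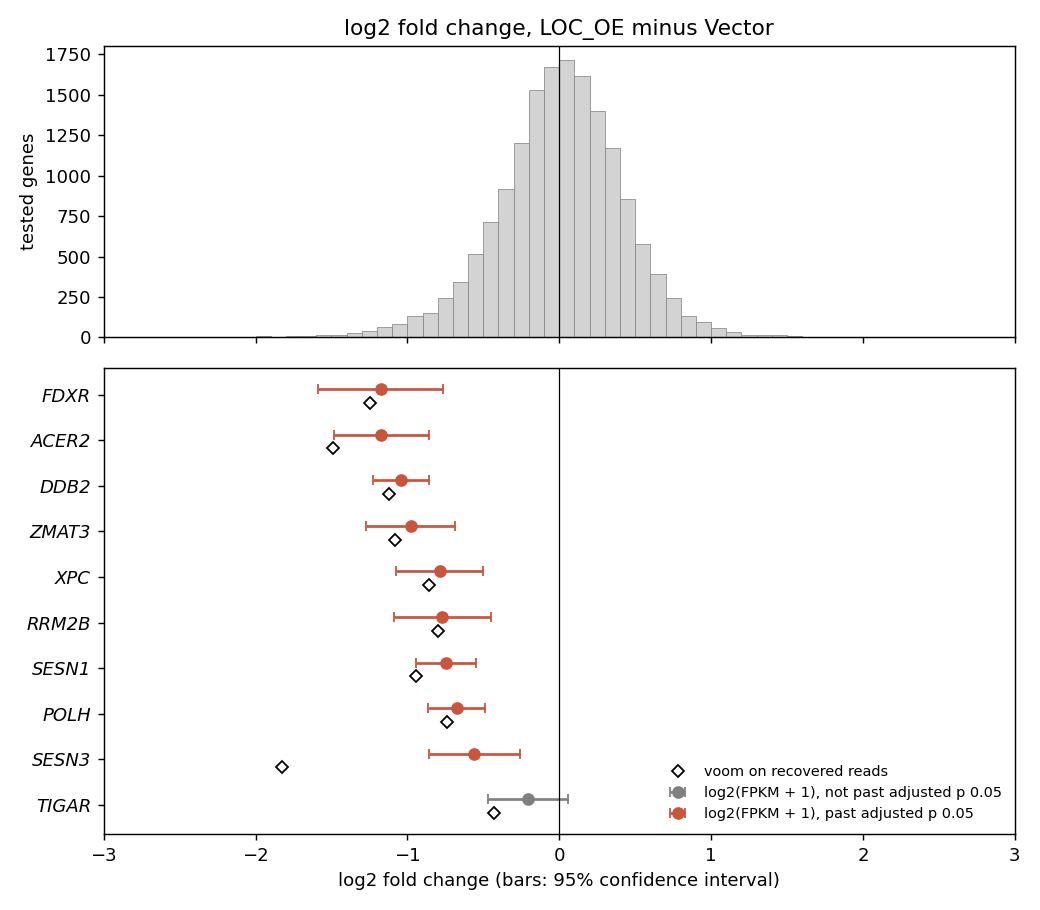
Top, number of tested genes by log2 fold change (LOC_OE minus Vector) in steps of 0.1. Bottom, the 10 genes with 95% confidence intervals from limma on log2(FPKM + 1), red where the adjusted p-value was under 0.05 and grey for TIGAR, with diamonds for limma voom on recovered reads. All 10 lie left of 0, from −1.18 for FDXR to −0.21 for TIGAR, and the 2 scales differ most for SESN3.

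Scaling affects such levels. The deposited values were scaled by median-of-ratios size factors, and over all genes 1565 fell and 1712 rose. With FPKM brought to an equal sum per library, which shifted the median log2 fold change of tested genes to −0.18, 3162 fell and 711 rose. All 10 members had a log2 fold change below 0 and the same 9 passed under that scaling. Of the other genes named here as higher, MIOS, GTF2H3, PRIMPOL, RPE, SPTLC1, CERS2 and PMAIP1 missed the threshold under it. Ratios within a library do not change with such scaling. They are given as a description for 11 pairs of a member and a partner or relative, chosen after the values were seen, so that no test was drawn from them. The largest difference among these pairs was that of ACER2 to ACER3, −1.96 on the log2 scale, and DDB2 to DDB1 and RRM2B to RRM1 differed by −1.37 and −1.58.

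**Figure D4:**
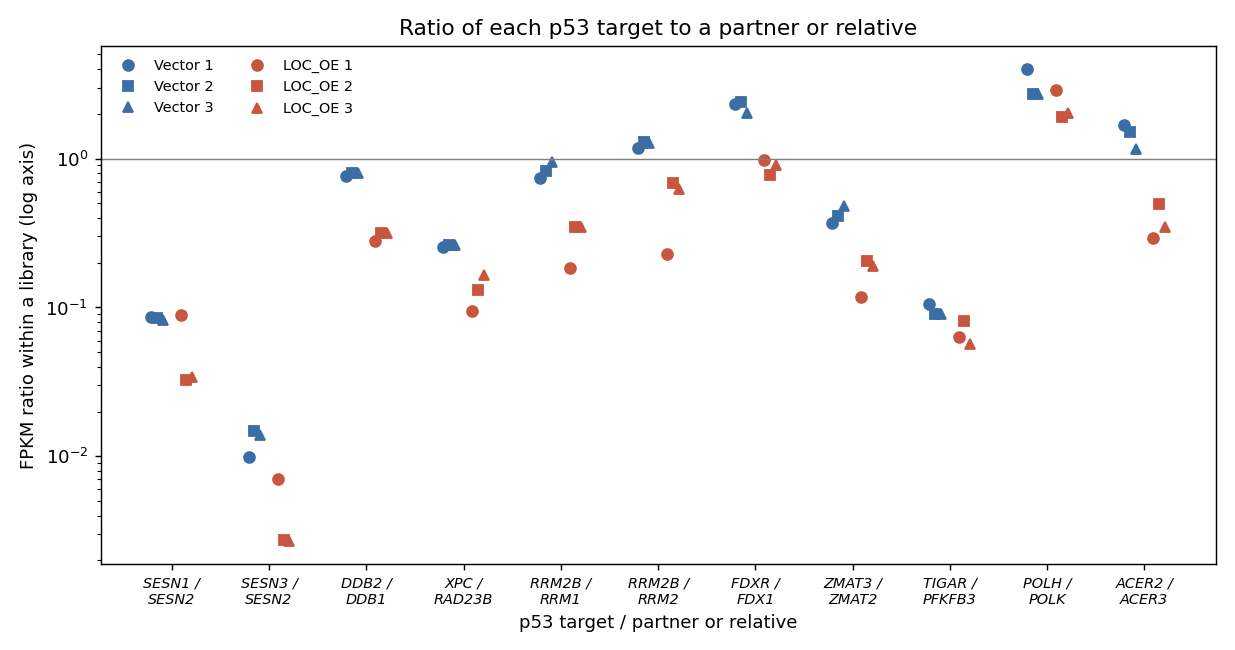
Ratio of FPKM within each library (log axis) for 11 pairs of a p53 target and a partner or relative, Vector in blue and LOC_OE in red, shapes for replicates 1 to 3. Red points lie under blue points in 9 pairs, whereas SESN1 to SESN2 and POLH to POLK overlap. In every pair the member's own LOC_OE libraries lie below its Vector libraries, so these counts are not a result separate from that.

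Other p53 targets were counted on a list that holds mainly arrest, apoptosis and feedback genes, with SESN2, the repair gene ASCC3 and the hydrolase genes CES2 and CMBL also on it. Of 35 such targets tested outside the 10, 19 fell, 1 rose and 15 did not pass, and their median log2 fold change was −0.49. These are 54.3% lower and 2.86% higher, against 9.74% and 10.7% of all tested genes. On the log2(FPKM + 1) scale the largest decreases were those of TP53INP1, CD82 and BTG2, with log2 fold changes of −2.24, −2.02 and −1.78. Each was a larger change on this scale than that of any of the 10 genes. By ratio of means the lowest tested target was TRIM22, at 0.680 FPKM in Vector and 0.0839 in LOC_OE, a ratio of 0.123. It passed the filter through its Vector libraries alone and therefore had to differ. PMAIP1, which encodes the death protein NOXA, rose by 0.39 on the log2 scale (limma adjusted p = 0.0363), and leaving out 1 library at a time it passed only without LOC_OE replicate 1. With all libraries it was lost without a filter (limma adjusted p = 0.0563), under quantile normalization (0.110) and with the replicate block (0.0673). The number of these targets that fell was 13 to 23 without a LOC_OE library and 9, 7 and 8 without Vector replicates 1, 2 and 3. Without these Vector replicates 378, 227 and 278 of all tested genes fell, against 1565 with all libraries. Leaving out a LOC_OE library gave 880 to 2586.
Among genes averaging 1 FPKM or more, the 5 whose values over the 6 libraries lay nearest to the mean profile of the members were ASTN2, ACSS2, AC105942.1, UNC5A and FAS. Their root mean square distances on the log2(FPKM + 1) scale were 0.0382 to 0.0529, the smallest of 13197 genes. FAS, a death receptor gene, is itself a known p53 target, and had an FPKM of 9.84 ± 0.157 in control and 4.92 ± 0.0716 in LOC_OE cells (SD, n = 3).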

How the data were processed

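Total RNA of RKO cells was extracted with TRIzol and sequenced as paired reads on a NovaSeq instrument from NEBNext Ultra libraries. The authors deposited 1 table of FPKM values for 6 libraries, and the submitters' processing notes name HISAT2 2.0.4, StringTie 1.3.0 and hg38. The counting tool and annotation are not given in the sources used here. All 58735 gene identifiers matched GENCODE release 29, whose merged exon lengths turned the FPKM into whole reads. The library sizes recovered with them matched scaling between libraries by median-of-ratios size factors. Read numbers cover counting error only.

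limma 3.58.1 in R 4.3.3 was fitted with a variance trend to log2(FPKM + 1), keeping genes with 3 or more libraries at 0.5 FPKM or above. An adjusted p-value under 0.05 was the threshold, and 1.5-fold on top of it was a second rule after the study's own. Pathway lists are described by counts and medians, with no set test. The genes named are the members, their direct partners, the 3 largest decreases and increases past the threshold in each list, and the 5 nearest in pattern. ERCC4, ERCC6, UVSSA, XRCC1, ZMAT1, ZMAT5, ASCC3, CES2, CMBL and TRIM22 were named after their values were seen. The members and lists were chosen with earlier results of these data known. The alternatives were other pseudocounts, filters, scalings and weights, limma voom on the reads, a replicate block and leaving out each library. The fit was also run on simulated reads with the same dispersion in every library. It recovered 94% of genes with a true log2 change of 1 and called 16 of 15958 unchanged genes. Changes were planted only in genes with a mean FPKM above those of SESN3 and TIGAR, so the 94% does not cover these members. The simulation held no outlying library such as LOC_OE replicate 1, so it does not cover that feature of the data. Figures were drawn with matplotlib 3.10.9.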

Additional observations from a re-analysis of the deposited data

How the results depend on the processing

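The direction of all 10 members was the same under every alternative in which they were tested. A mean FPKM of at least 1 left out SESN3 and TIGAR. Of the members past the threshold with all libraries, only SESN3 was lost in an alternative that kept all libraries, with log2 fold changes of −0.38 under quantile normalization and −0.56 with the replicate block (adjusted p = 0.0698 and 0.0664 from limma). Whether the replicate numbers pair the samples is not known. The deviations of same-numbered libraries correlated at 0.11, −0.034 and 0.12, and those of differently numbered ones at −0.13 to 0.058. Such small correlations between so few libraries cannot settle it, and the main fit used no pairing. With that replicate block, 8 members fell, and 940 genes fell and 1125 rose in all. Over all genes, 3724 fell and 4362 rose with array weights, 3162 fell and 711 rose with the same sum of FPKM, and 1052 rose without a filter. Leaving out each library in turn gave 227 to 2586 lower genes, 144 to 3117 higher genes and 5 to 9 members. The log2 fold changes in these fits were −0.63 to −0.50 for SESN3, −0.90 to −0.69 for XPC, −0.85 to −0.64 for RRM2B and −1.37 to −1.06 for FDXR. The fits that left out a library had fewer samples. No filter together with a pseudocount of 0.1, chosen after seeing the data, gave SESN3 an adjusted p-value of 0.0443 from limma. In alternatives with all libraries, 14 to 25 other p53 targets fell, and of the excision repair list 2 to 9 genes fell and 2 to 14 rose. Over all tested genes in these alternatives, 940 to 3724 fell and 711 to 4362 rose. The 25 and the 9 came with array weights and with the same sum of FPKM, and the 14 with array weights. Of 14 member promoter windows, 1 held a pair of decamers at up to 2 mismatches, 4 at up to 3 and 7 at up to 4. The shares of all promoter windows at these limits were 0.649%, 5.2% and 26%.

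Of the partners that did not pass with all libraries, those named next changed sign, while RRM2, POLK, PCNA and ACER3 kept theirs in every alternative. With array weights the log2 fold changes were 0.40 for SESN2, which then passed (adjusted p = 0.0307 from limma), −0.11 for PFKFB3, 0.11 for POLI and 0.066 for ASAH1. With quantile normalization they were −0.088 for RAD23B, −0.026 for FDX1, −0.019 for PFKFB3, 0.0018 for POLI and −0.020 for ZMAT2. With the same sum of FPKM they were −0.014 for DDB1, −0.083 for RAD23B, −0.15 for FDX1, −0.17 for PFKFB3, −0.055 for REV1 and −0.014 for ZMAT2. Leaving out each library gave ranges of −0.327 to 0.421 for SESN2, −0.213 to 0.00625 for CETN2, −0.0372 to 0.187 for FDX1, −0.0377 to 0.178 for PFKFB3, −0.21 to 0.102 for POLI and −0.134 to 0.082 for ASAH1. The cause of these changes was not tested.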
